A study of Mus musculus with 15 samples.

Results

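Notch signalling was examined through 8 genes, the receptors *Notch1*, *Notch2* and *Notch3*, the ligand *Jag1* and the HES/HEY genes *Hes1*, *Hey1*, *Hey2* and *Heyl*. They were taken by gene symbol as core genes of the pathway, with earlier results of these data known, and all 8 were among the 24134 genes counted. Of these, 7 passed the filter on low counts in both count tables, and *Heyl* passed in neither.

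RNA was sequenced from primary articular chondrocytes, the matrix-producing cells of joint cartilage, which were isolated from the femoral condyles and tibial plateaus of ICR mouse pups less than a week old and used at passage 0. In the drug table, cells of 3 groups of 3 libraries were held for 108 h in DMSO, the solvent, or in 10 μM XAV939 or 10 μM IWR-1, which are small-molecule tankyrase inhibitors. In the siRNA table, 3 libraries (siCtrl) came from cells transfected with a control siRNA and 3 (siTnks/2) from cells given siRNAs to both tankyrase genes, *Tnks* and *Tnks2*, with the same reagent. No genetic alteration is given for any group, the labels give no time for the transfection, and the study calls the 3 libraries of a group biological replicates without saying whether they came from separate litters.

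Notch receptors are cut by ADAM proteases and γ-secretase after a ligand of the Jagged or Delta-like family on a neighbouring cell binds them. The released intracellular domain joins the DNA-binding protein RBPJ and a Mastermind coactivator, and this complex turns on genes of the HES and HEY families, which encode transcriptional repressors. In cartilage the pathway is known for restraining chondrocyte differentiation during growth and for its activity in osteoarthritis, and *Notch3* is best known from the mural cells of blood vessels. Tankyrases are poly(ADP-ribose) polymerases that mark proteins for degradation, among them AXIN of the Wnt pathway.

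Totals per library ran from 26857070 to 36615194 counts, and within each group the libraries differed from each other beyond counting noise. *Tnks* fell in the siTnks/2 libraries from 65.8 to 18.7 CPM (the count scaled to library size by TMM) on average, a log2 fold change of −1.81 (adjusted p = 0.00569), and *Tnks2* from 118 to 54.8 (log2 change −1.10, adjusted p = 0.00384). Defining cartilage genes were abundant, the 12 chondrocyte markers together holding 28540 to 38685 CPM with DMSO, 40048 to 60063 with XAV939, 96800 to 122774 with IWR-1, 94014 to 125619 with siCtrl and 134955 to 217528 with siTnks/2. Of these 12 markers, 5 rose with siTnks/2, 5 with XAV939 and 12 with IWR-1, and all 12 had log2 fold changes above 0 in each comparison. Among all genes tested, 10.4% rose and 7.61% fell with siTnks/2. The shares were 7.57% and 9.85% with XAV939, and 16.2% and 20.2% with IWR-1. Endothelial markers summed to between 11.3 and 39.0 CPM in any library and leukocyte markers to between 4.32 and 15.7, with 6 to 8 of the 10 genes of either list under 1 CPM in every group. *Erg* was the largest part of the endothelial sum (13.7 CPM on average with siCtrl). The 39.0 CPM came from siTnks/2 replicate 2, where *Pecam1* had 89 counts, *Cdh5* 64 and *Tie1* 35. The other siTnks/2 libraries had 5 and 7 counts of *Pecam1* and 0 of *Cdh5* and *Tie1*. *Emcn* (10 counts), *Cldn5* (9), *Egfl7* (108), *Vwf* (47) and *Erg* (703) also had their highest counts of the siRNA table in siTnks/2 replicate 2. *Kdr* (19 counts) and *Tek* (11) were no higher in siTnks/2 replicate 2 than in siCtrl replicate 3 (20 and 23). The 7 fibroblast markers summed to 12088 to 15133 CPM with DMSO, above the 6300 to 8217 with XAV939 and the 5797 to 8702 with IWR-1, and overlapped between siCtrl and siTnks/2. The sum is mostly collagen, and members went both ways. With XAV939 2 rose (*Postn*, log2 fold change 1.21, and *Fap*, 0.71) and 3 fell, with IWR-1 1 rose (*Postn*, 1.32) and 4 fell, and with siTnks/2 2 rose (*Postn*, 2.05, adjusted p = 0.0352, and *Fap*, 1.17, adjusted p = 0.00384) and 0 fell (2 of 7 at an unadjusted p under 0.05 in edgeR). The part of these cell type markers in the Notch results was not tested, and in bulk RNA fewer cells of a type and less RNA per cell cannot be told apart.

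The promoters of *Hey2* and *Notch3* are shown because these were the 2 Notch genes that fell under both drugs. They are RefSeq sequences of GRCm38.p6 (the assembly of mm10), 250 bases before to 50 after the start site, 5′ to 3′ on the gene's strand, for chr10:30842734-30843033 and chr17:32166841-32167140, both on the minus strand. Capitals mark TGGGAA, the core of the RBPJ motif, searched on both strands.
Hey2: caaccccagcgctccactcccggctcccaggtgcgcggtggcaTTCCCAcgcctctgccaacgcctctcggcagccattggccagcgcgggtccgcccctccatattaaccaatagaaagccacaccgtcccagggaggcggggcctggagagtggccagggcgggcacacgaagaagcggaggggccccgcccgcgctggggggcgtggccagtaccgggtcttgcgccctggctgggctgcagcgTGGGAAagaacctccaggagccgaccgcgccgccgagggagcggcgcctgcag
Notch3: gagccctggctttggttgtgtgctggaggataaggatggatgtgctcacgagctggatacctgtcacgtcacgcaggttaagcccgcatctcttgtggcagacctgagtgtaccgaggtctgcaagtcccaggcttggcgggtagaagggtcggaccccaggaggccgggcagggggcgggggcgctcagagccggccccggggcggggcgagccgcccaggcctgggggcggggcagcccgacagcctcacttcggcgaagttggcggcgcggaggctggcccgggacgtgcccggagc
The *Hey2* window held the core on the minus strand of the gene at positions −207 to −202 and on the plus strand at −3 to 3, and both copies lay inside the longer GTGGGAA. The *Notch3* window held none, and neither did those of *Notch1*, *Notch2* and *Jag1*. No window was available for *Hes1*, *Hey1* or *Heyl*, so their promoters were not searched. *Notch3* held the N-box CACNAG, a motif bound by HES proteins, 2 times, *Notch1* 3 times and *Notch2* once. Of 32851 mouse promoters of the same length, 25.6% held TGGGAA, 6.38% held GTGGGAA and 42.5% held CACNAG on either strand. A match describes the letters of the window and is not a measured binding site.

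*Notch2* was the most abundant of the genes and *Hey2* the least abundant of those tested when levels were compared per kb of exon. In the siCtrl libraries the mean level was 12.2 CPM per kb for *Notch2*, followed by 8.07 for *Hes1*, 2.30 for *Notch1*, 1.81 for *Jag1*, 0.795 for *Hey1*, 0.747 for *Notch3* and 0.121 for *Hey2*. In this order the libraries of *Notch1* and *Jag1* overlapped, as did those of *Hey1* and *Notch3*. In the DMSO libraries the means were 13.1 CPM per kb for *Notch2*, 3.35 for *Hes1*, 1.79 for *Notch3*, 1.30 for *Jag1*, 1.29 for *Notch1*, 0.725 for *Hey1* and 0.127 for *Hey2*, and those of *Notch3*, *Jag1* and *Notch1* overlapped. *Notch3* thus stood next to *Hey1* in the order of levels in siCtrl cells and above *Jag1* by its mean in DMSO cells. The lengths join all annotated exons of a gene (14.2 kb for *Notch1*), and the annotation used for counting is not given. The order of genes close in level may therefore depend on the lengths used. The tables were scaled separately and the cells differed in handling, so levels are not tested between siCtrl and DMSO.

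**Figure D1:**
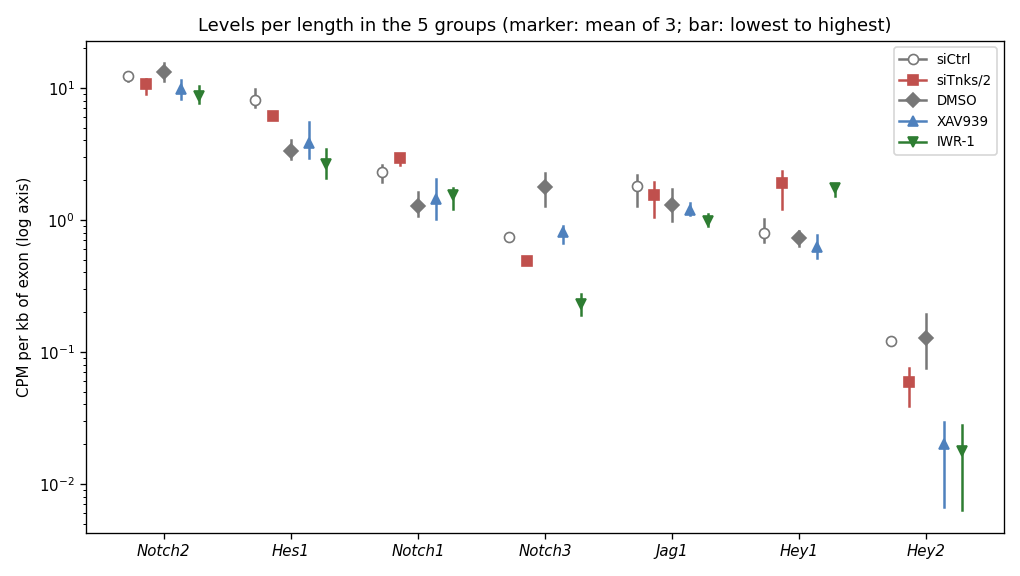
Mean level per kb of exon (CPM per kb, log axis) of the 7 tested genes in the 5 groups, with bars from the lowest to the highest of 3 libraries. *Notch2* lies highest, at 12.2 CPM per kb with siCtrl and 13.1 with DMSO, and *Hey2* lowest, at 0.121 and 0.127.

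Across the 7 tested genes, *Notch3* was lower after every form of tankyrase inhibition, *Hey2* was lower with both drugs, and *Hey1* was higher with knockdown and IWR-1 and did not pass the test with XAV939. With siTnks/2, 2 of 7 genes passed an adjusted p of 0.05 in edgeR's quasi-likelihood test, 1 higher and 1 lower, where 18.0% of all 13672 genes tested did, 10.4% higher and 7.61% lower. With XAV939, 2 of 7 passed, both lower, against 17.4% of 13873 genes (7.57% higher, 9.85% lower). Upper-quartile scaling turned that balance among all genes, from 1050 higher and 1366 lower to 1338 and 1174. With IWR-1, 4 of 7 passed, 1 higher and 3 lower, against 36.4% (16.2% higher, 20.2% lower). The median log2 fold change of the 7 genes was −0.22 with siTnks/2, −0.22 with XAV939 and −0.40 with IWR-1, and that of all genes tested was −0.0012, 0.016 and 0.0056. *Hey2* is 1 of the 7 and passed the low-count filter in both tables through the control libraries, where it was high, so its part in these counts and medians is no support for a fall. XAV939 and IWR-1 were set against the same 3 DMSO libraries, so the 2 drug comparisons are not independent of each other.

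Libraries of a table that carried the same replicate number deviated together, and with the number as a block the counts were 5 of 7 with siTnks/2, 3 with XAV939 and 5 with IWR-1, against 34.6%, 33.4% and 47.5% of all genes. The genes the block added are given with each gene. Without 1 library, the siTnks/2 count was 0 when any siCtrl library or siTnks/2 replicate 1 was left out, 1 without siTnks/2 replicate 3 and 3 without siTnks/2 replicate 2.

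**Figure D2:**
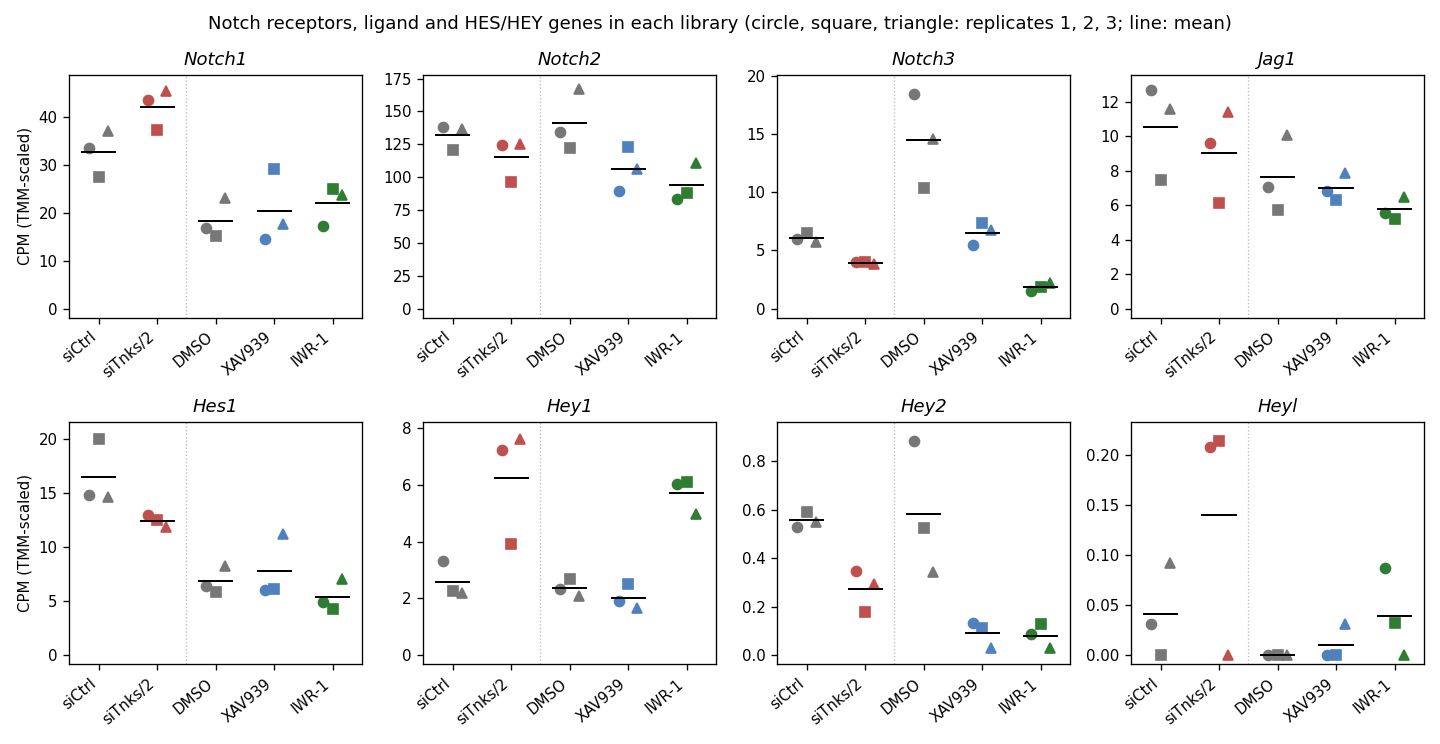
Level of each of the 8 genes (CPM, linear axes that include 0, a separate scale for each gene) in the 15 libraries; circles, squares and triangles are replicates 1, 2 and 3, the line is the mean of 3, and the dotted line parts the siRNA from the drug table. *Notch3* steps down from 14.5 CPM with DMSO to 6.50 with XAV939 and 1.86 with IWR-1, and *Hey1* lies above its controls with siTnks/2 and IWR-1.

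*Notch3* (Entrez gene 18131, chr17:32120820-32166852, mm10, minus strand) encodes a receptor and was the 1 Notch gene called in all 3 comparisons, lower in each. How many of all genes were called in all 3 was not counted, and the drug comparisons share their DMSO libraries. Its level was 5.94, 6.47 and 5.72 CPM in the siCtrl libraries (replicates 1, 2 and 3) and 4.03, 4.03 and 3.79 in the siTnks/2 libraries. All 3 siTnks/2 libraries lay below all siCtrl libraries, and the fall was 1.52-fold (log2 change −0.61, adjusted p = 0.0172, SE 0.12). The call was lost without any 1 of the siCtrl libraries and without siTnks/2 replicate 1 (adjusted p 0.0592 to 0.0726), while the log2 fold change stayed between −0.64 and −0.56 in all 6 such fits.

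In the drug table *Notch3* stood at 18.45, 10.36 and 14.58 CPM with DMSO, at 5.42, 7.32 and 6.76 with XAV939, and at 1.54, 1.83 and 2.20 with IWR-1. The 3 groups did not overlap at any point. *Notch3* was 2.22-fold lower with XAV939 (log2 change −1.15, adjusted p = 0.00482, SE 0.22) and 7.57-fold lower with IWR-1 (−2.92, adjusted p = 1.01e-05, SE 0.24). Within pairs of the same replicate number, the log2 ratio to DMSO was −1.77, −0.50 and −1.11 for XAV939 and −3.58, −2.50 and −2.73 for IWR-1, so that every pair fell with either drug. Both calls held without any 1 library.

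Since *Notch3* is a mural cell gene, 10 mural markers were measured beside it. Their sum was 104 to 120 CPM with DMSO, 111 to 127 with XAV939, 118 to 140 with IWR-1, 190 to 202 with siCtrl and 131 to 185 with siTnks/2, most of it from *Pdgfrb*. Of the 10 markers, 5 to 7 were under 1 CPM in each group. Among the 7 tested, 1 fell with siTnks/2 (*Cnn1*, log2 fold change −1.58, adjusted p = 0.040), 0 passed with XAV939 (1 at an unadjusted p under 0.05 in edgeR) and 1 fell with IWR-1 (*Abcc9*, −1.28, adjusted p = 0.021). *Pdgfrb* alone averaged 102 CPM with DMSO, so that the sum says little of the other members, and *Rgs5* had a log2 fold change of −1.11 with IWR-1 (adjusted p = 0.0993). The shares of all genes tested that fell were 7.61% with siTnks/2, 9.85% with XAV939 and 20.2% with IWR-1. Of the 4 endothelial and 4 leukocyte markers tested in the drug table, 2 and 2 fell with IWR-1, as *Notch3* did. These were *Tek* (−2.30, adjusted p = 0.000374, tested only because it was high with DMSO), *Vwf* (−1.12, adjusted p = 0.0140), *Cd68* (−1.02, adjusted p = 0.000880) and *Csf1r* (−1.16, adjusted p = 0.0215). The leukocyte sum was 11.4 to 15.7 CPM with DMSO, 12.1 to 15.5 with XAV939 and 6.83 to 9.42 with IWR-1, and the endothelial sum 14.1 to 21.97, 12.7 to 17.7 and 11.3 to 15.2. The mural sum was lower with siTnks/2 than with siCtrl. The part of these cell types in the *Notch3* results was not tested. The exons of *Notch3* overlap those of the antisense gene Gm17276 over 488 bases, and since the strand setting of the counting is not stated, reads of the 2 genes cannot be told apart there.

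*Notch2* (gene 18129, chr3:98013527-98150361, plus strand), a receptor, was lower with IWR-1 and did not pass the test with siTnks/2 or XAV939. Its level was 134.47, 122.49 and 166.85 CPM with DMSO and 83.36, 87.98 and 110.95 with IWR-1, and all IWR-1 libraries lay below all DMSO libraries. The fall was 1.5-fold (log2 change −0.59, adjusted p = 0.0152, SE 0.16). Without IWR-1 replicate 1 it was −0.51 (adjusted p = 0.0682) and without IWR-1 replicate 2 −0.54 (adjusted p = 0.0647), so that the call rests on these libraries.

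With XAV939 *Notch2* stood at 89.20, 123.29 and 106.47 CPM, overlapping DMSO in replicate 2 (log2 change −0.41, adjusted p = 0.104, SE 0.16, and −0.41, adjusted p = 0.0239 with the replicate block). It was 138.29, 120.81 and 136.78 CPM with siCtrl and 124.51, 96.47 and 125.05 with siTnks/2, and these groups overlapped (log2 change −0.19, adjusted p = 0.266, SE 0.11, and −0.20, adjusted p = 0.0381 with the block). Each siTnks/2 library lay below the siCtrl library of its number. *Notch2* exons overlap 541 bases of Gm42820, a predicted gene on the same strand.

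*Notch1* (gene 18128, chr2:26457903-26516663, minus strand), the third receptor, did not pass the test against control in any of the 3 comparisons when all libraries were used and no block. It measured 33.53, 27.42 and 37.07 CPM with siCtrl and 43.48, 37.29 and 45.36 with siTnks/2. Every siTnks/2 library lay above every siCtrl library, and the log2 fold change was 0.36 (adjusted p = 0.0884, SE 0.13). With the replicate block it was 0.37 (adjusted p = 0.00742, SE 0.053), and it was positive in 3 of 3 pairs. It also passed without siTnks/2 replicate 2 (0.44, adjusted p = 0.0403).

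In the drug table *Notch1* stood at 16.71, 15.13 and 23.04 CPM with DMSO, 14.44, 29.16 and 17.62 with XAV939 and 17.30, 25.04 and 23.60 with IWR-1, and the 3 groups overlapped. Replicate 2 of XAV939 was the highest library, and the log2 fold change of 0.15 (adjusted p = 0.717) became −0.19 without it. With IWR-1 the log2 fold change was 0.26 (SE 0.26, 95% interval −0.30 to 0.83, adjusted p = 0.460). *Notch1* was thus the one receptor whose mean was above the control in all 3 comparisons, and *Notch2* and *Notch3* means were below it. Exons of 0610009E02Rik and Gm13568 on the opposite strand overlap *Notch1*, over 1068 and 414 bases.

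*Jag1* (gene 16449, chr2:137081456-137116644, minus strand), which encodes the membrane-bound ligand Jagged-1, did not pass the test in any of the 3 comparisons. Its levels were 12.66, 7.43 and 11.57 CPM with siCtrl and 9.61, 6.10 and 11.39 with siTnks/2. In both groups replicate 2 was lowest, and the log2 fold change was −0.22 (95% interval −0.87 to 0.42, adjusted p = 0.596). With DMSO it measured 7.04, 5.70 and 10.06 CPM, with XAV939 6.79, 6.31 and 7.87, and with IWR-1 5.55, 5.20 and 6.49. The log2 fold change was −0.12 with XAV939 (95% interval −0.56 to 0.33, adjusted p = 0.724) and −0.40 with IWR-1 (−0.85 to 0.05, adjusted p = 0.153). With the block, IWR-1 gave −0.38 and an adjusted p of 0.0332, each IWR-1 library lying below the DMSO library of its number. Its value also passed without DMSO replicate 2 (−0.57, adjusted p = 0.0442).

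*Hes1* (gene 15205, chr16:30064384-30067796, plus strand), a repressor and a common readout of Notch activity, did not pass the test in any of the 3 comparisons without the block. Its levels were 14.77, 19.96 and 14.57 CPM with siCtrl and 12.91, 12.51 and 11.81 with siTnks/2, where all libraries lay below the control. The log2 fold change was −0.40 (adjusted p = 0.0853, SE 0.14), and −0.39 (adjusted p = 0.0430, SE 0.11) with the block. In the drug table it stood at 6.37, 5.85 and 8.23 CPM with DMSO, at 6.01, 6.08 and 11.23 with XAV939 and at 4.94, 4.27 and 7.05 with IWR-1. Replicate 3 was highest in each of these 3 groups. The log2 fold change was 0.19 with XAV939 (95% interval −0.41 to 0.78, adjusted p = 0.665), becoming −0.19 without XAV939 replicate 3, and −0.33 with IWR-1 (−0.93 to 0.28, adjusted p = 0.387).

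*Hey1* (gene 15213, chr3:8663359-8667256, minus strand), a HEY family repressor, rose with siTnks/2 and IWR-1. Its levels were 3.33, 2.25 and 2.20 CPM with siCtrl and 7.22, 3.92 and 7.60 with siTnks/2, so that all treated libraries lay above the control. The rise was 2.37-fold (log2 change 1.24, adjusted p = 0.0306, SE 0.29). Left without any 1 of the siCtrl libraries, or without siTnks/2 replicate 1 or 3, the call was lost (adjusted p 0.0589 to 0.103), with log2 fold changes of 1.08 to 1.49 over the 6 such fits.

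With DMSO *Hey1* measured 2.35, 2.68 and 2.07 CPM, with XAV939 1.91, 2.51 and 1.67, and with IWR-1 6.02, 6.10 and 4.96. The IWR-1 libraries all stood above the other 6, and XAV939 and DMSO overlapped. IWR-1 raised *Hey1* 2.37-fold (log2 change 1.24, adjusted p = 0.000419, SE 0.19), a call held without any 1 library. XAV939 gave −0.22 (95% interval −0.65 to 0.20, adjusted p = 0.455), and its interval does not reach the IWR-1 estimate. Chondrocyte markers were also higher with IWR-1 than with XAV939 (11 of 12 called), where 17.6% of all genes differed either way. Their part in the *Hey1* result was not tested.

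*Hey2* (gene 15214, chr10:30832359-30842801, minus strand), its paralogue, was near the lower limit of detection and fell with both drugs. The raw counts were 29, 18 and 11 with DMSO, 5, 3 and 1 with XAV939 and 3, 4 and 1 with IWR-1. Every treated library lay below every DMSO library, at 0.35 to 0.88 CPM with DMSO and 0.03 to 0.13 with either drug. Summed over 3 libraries and scaled for depth, 9 counts with XAV939 against 58 with DMSO were 6.26-fold fewer (exact 95% interval 3.08 to 14.4), and 8 counts with IWR-1 were 7.33-fold fewer (3.48 to 17.8). These intervals cover counting error only. The fitted log2 fold changes, which depend on the prior count of 2, were −2.07 (adjusted p = 0.00913, SE 0.44) with XAV939 and −2.19 (adjusted p = 0.00260, SE 0.44) with IWR-1. In the drug table *Hey2* reached the CPM limit of the low-count filter, 0.296, in the 3 DMSO libraries and in 0 of the 6 drug libraries, so it was tested only because it was high with DMSO. With no such filter the adjusted p was 0.00631 with XAV939 and 0.0017 with IWR-1. These values come from the same counts and are no further support for a fall.

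With siCtrl *Hey2* had 17, 16 and 18 counts and with siTnks/2 10, 5 and 9. The siTnks/2 libraries were all lower, 24 counts against 51 in sum, 2.02-fold fewer (exact 95% interval 1.22 to 3.44), and the filter limit was reached in 3 siCtrl libraries and 1 siTnks/2 library. The gene missed the threshold at a log2 fold change of −0.87 (adjusted p = 0.0633, SE 0.27) and also did with the block (adjusted p = 0.0643). Of the promoters searched, which left out *Hes1*, *Hey1* and *Heyl*, that of *Hey2* was the one that held RBPJ cores. Such a core was held by 25.6% of 32851 mouse promoters, and its part in the *Hey2* result was not tested.

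*Heyl* (gene 56198, chr4:123233556-123249875, plus strand), the third HEY gene, had 1, 0 and 3 counts with siCtrl, 6, 6 and 0 with siTnks/2, 0 in all DMSO libraries, 0, 0 and 1 with XAV939 and 3, 1 and 0 with IWR-1. It was not tested, and no fold is given at such counts.

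**Figure D3:**
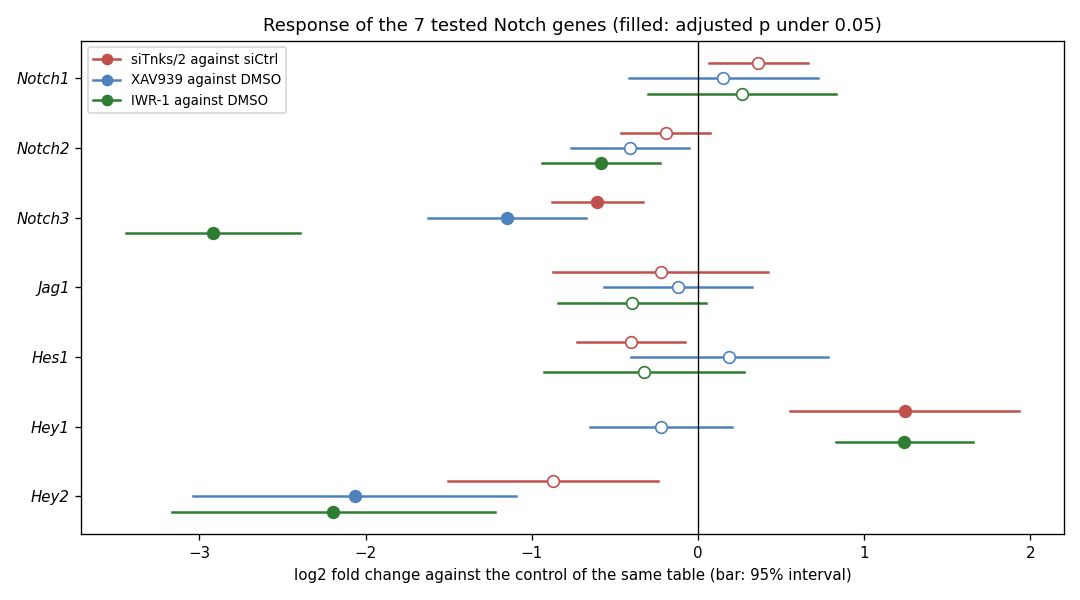
Log2 fold change of the 7 tested genes relative to siCtrl or DMSO, with 95% intervals; filled points passed an adjusted p of 0.05. *Notch3* is to the left of 0 in all 3 comparisons (−0.61, −1.15 and −2.92), *Hey1* is at 1.24 with siTnks/2 and with IWR-1 and at −0.22 with XAV939, and *Hey2* is at −2.07 and −2.19 with the drugs.

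The inhibitors were compared with each other at the same dose and time. IWR-1 and XAV939 differed in 2 of the 7 genes, *Notch3* and *Hey1*, where 17.6% of all genes differed. *Notch3* was 3.41-fold lower with IWR-1 than with XAV939 (log2 difference −1.77, adjusted p = 0.000750, SE 0.23), and *Hey1* was 2.76-fold higher (1.47, adjusted p = 0.000658, SE 0.19). In both genes the groups did not overlap, and the calls held without any 1 library. *Hey2* gave −0.13 with a 95% interval from −1.16 to 0.91, a wide interval on these few counts. *Notch1* gave 0.11 (−0.45 to 0.67), *Notch2* −0.18 (−0.53 to 0.18), *Jag1* −0.28 (−0.73 to 0.17) and *Hes1* −0.51 (−1.11 to 0.08), none past the threshold. With the block *Hes1* also passed, at −0.49 (adjusted p = 0.0161, SE 0.13), lower with IWR-1 in 3 of 3 pairs.

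Each drug response was also set against the knockdown response in 1 model over the 15 libraries. *Hey1* was the 1 gene of 7 whose response to XAV939 differed from that to siTnks/2 (difference of log2 fold changes −1.48, adjusted p = 0.0138, SE 0.35), against 13.5% of all 14271 genes. *Notch3* was the 1 gene whose response to IWR-1 differed from that to siTnks/2 (−2.32, adjusted p = 5.38e-05, SE 0.28), against 24.4%. For *Notch3* the difference between XAV939 and siTnks/2 was −0.56 (95% interval −1.14 to 0.03, adjusted p = 0.190). For *Hey1* that between IWR-1 and siTnks/2 was −0.01 with an interval of −0.90 to 0.87. With the replicate block *Hes1* (0.52, adjusted p = 0.0395) and *Hey2* (−1.19, adjusted p = 0.0462) were added for XAV939, and *Hey2* (−1.29, adjusted p = 0.0250) for IWR-1. *Hey2* also passed for IWR-1 without DMSO replicate 3 (−1.54, adjusted p = 0.0344). The cells of the tables also differed in transfection, and how long the siRNAs acted is not given.

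Beyond these genes, 52 other genes of the pathway were listed by role, and 42 of them were tested. With siTnks/2, 4 rose and 3 fell, with XAV939 2 rose and 4 fell, and with IWR-1 4 rose and 10 fell. The median log2 fold change was 0.03, −0.09 and −0.15. Of the 42, 7, 6 and 14 passed, shares set beside the 18.0%, 17.4% and 36.4% of all genes. With the replicate block, 14 passed with siTnks/2 and 14 with XAV939, where 34.6% and 33.4% of all genes did. Without DMSO replicate 1, 3 passed with XAV939. Without 1 library of the siRNA table, the number ran from 1 (without siCtrl replicate 1, and without siCtrl replicate 3) to 8, with 4 without siCtrl replicate 2 and 3 without siTnks/2 replicate 1.

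Among the nuclear partners of the receptors, *Rbpj* (gene 19664, chr5:53466152-53657362, plus strand), the DNA-binding subunit, was the only gene of the 52 called in all 3 comparisons, each time lower. The share of all genes called in all 3 was not counted, so this call has no share to be set beside. It measured 111.82, 117.67 and 130.84 CPM with siCtrl and 73.19, 52.69 and 79.89 with siTnks/2. It measured 267.42, 225.84 and 270.13 CPM with DMSO, 152.31, 142.28 and 162.33 with XAV939 and 125.13, 120.72 and 147.89 with IWR-1. The treated libraries lay below their controls without overlap in each comparison. The log2 fold change was −0.81 with siTnks/2 (adjusted p = 0.0165, SE 0.15), −0.74 with XAV939 (adjusted p = 0.00189, SE 0.12) and −0.95 with IWR-1 (adjusted p = 0.000109, SE 0.12). The siTnks/2 call was lost without any 1 siCtrl library and without siTnks/2 replicate 1 (adjusted p 0.0532 to 0.0623). *Maml3*, a Mastermind coactivator, fell with IWR-1 (−0.53, adjusted p = 0.0497), and *Maml1*, *Maml2*, *Ep300* and *Snw1* did not pass in any of the 3. The *Maml3* call lay close to the threshold of 0.05 and was not followed through the alternative fits.

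The other HES gene tested, *Hes6*, which unlike *Hes1* is known as an inhibitor of HES1 activity, measured 59.77, 55.59 and 41.33 CPM with DMSO, 26.27, 19.78 and 20.40 with XAV939 and 22.70, 21.15 and 15.95 with IWR-1. It fell with XAV939 (−1.23, adjusted p = 0.00128, SE 0.18) and IWR-1 (−1.39, adjusted p = 0.000170, SE 0.18) and had a log2 fold change of −0.07 with siTnks/2 (adjusted p = 0.746). *Hes2*, *Hes3*, *Hes5*, *Hes7* and *Helt* were too low to test.

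Among the ligands other than *Jag1*, the non-canonical *Dlk1*, known for antagonizing Notch, rose with XAV939 (log2 change 0.40, adjusted p = 0.0267, SE 0.11) and IWR-1 (0.55, adjusted p = 0.00207, SE 0.11). With siTnks/2 its value was 0.91 (adjusted p = 0.0976, and 0.84 and 0.00669 with the block). The XAV939 call for *Dlk1* was lost in 6 of 9 fits without 1 library (DMSO replicate 1 or 3, XAV939 replicate 2 or 3, IWR-1 replicate 1 or 2), the log2 fold changes running from 0.34 to 0.49. An edgeR fit of only the 2 groups compared also lost this call of *Dlk1* (adjusted p = 0.0890). Its relative *Dlk2* fell with siTnks/2 from 6.03, 5.47 and 5.39 CPM to 2.33, 1.57 and 2.58 (−1.35, adjusted p = 0.00838, SE 0.19), and was 0.19 with XAV939 (adjusted p = 0.654). *Dll3* and *Dll4* were too low to test, as was the receptor *Notch4* in either table.

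Of the E3 ligases that mark ligands for uptake, *Neurl1b* rose with XAV939 (log2 change 1.14, adjusted p = 0.000507, SE 0.14) and IWR-1 (0.92, adjusted p = 0.000497, SE 0.14) from 3.26, 4.48 and 3.74 CPM with DMSO to between 7.22 and 8.76. With siTnks/2 it gave −0.14 (adjusted p = 0.639). Its paralogue *Neurl1a* went the other way with IWR-1 (−0.71, adjusted p = 0.00548), and *Mib2*, another of these ligases, rose with IWR-1 (0.48, adjusted p = 0.0366). The calls of *Neurl1a* and *Mib2* were not followed through the alternative fits. Among the 10 genes of receptor cleavage, the γ-secretase subunit *Ncstn* fell with siTnks/2 (−0.32, adjusted p = 0.0106) and IWR-1 (−0.41, adjusted p = 0.00690), the subunit *Aph1b* fell with XAV939 (−0.49, adjusted p = 0.0214) and IWR-1 (−0.66, adjusted p = 0.00187), and the catalytic subunit *Psen2* rose with siTnks/2 (0.61, adjusted p = 0.0227). *Fbxw7*, which targets the Notch intracellular domain for degradation, rose with siTnks/2 (0.59, adjusted p = 0.0133). The siTnks/2 calls of *Ncstn* and *Fbxw7* were lost without siCtrl replicate 1 or 3 (adjusted p 0.0506 to 0.0612), that of *Ncstn* also without siTnks/2 replicate 1, and that of *Psen2* without any 1 siCtrl library or siTnks/2 replicate 1 (up to 0.0908). *Pofut1*, which adds O-fucose to the receptors, rose with siTnks/2 (0.20, adjusted p = 0.0352) and IWR-1 (0.40, adjusted p = 0.00424). The first of these calls was lost without any 1 library but siTnks/2 replicate 2 (adjusted p up to 0.135). It was also lost in edgeR with no filter on low counts (adjusted p = 0.0587). The XAV939 call of *Aph1b* was lost without DMSO replicate 1 (adjusted p = 0.0549) and in the edgeR fit of only the 2 groups compared (adjusted p = 0.0593). *Dtx1*, a Deltex regulator at 0.536 CPM with DMSO, fell with XAV939 (−1.53, adjusted p = 0.0204) and IWR-1 (−1.04, adjusted p = 0.0456). Its XAV939 call was lost without DMSO replicate 1 and without XAV939 replicate 1 or 2 (adjusted p up to 0.0814), and its IWR-1 call without any 1 library but DMSO replicate 2 or 3, its value falling to −0.54 without DMSO replicate 1. *Dtx1* reached the filter limit in the 3 DMSO libraries and in 0 of the 6 drug libraries. It was thus tested only because it was high with DMSO, and with no filter the IWR-1 call was lost (adjusted p = 0.0530). That call was also lost in the edgeR fit of only the 2 groups compared (adjusted p = 0.0694) and in DESeq2 (adjusted p = 0.103).

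**Figure D4:**
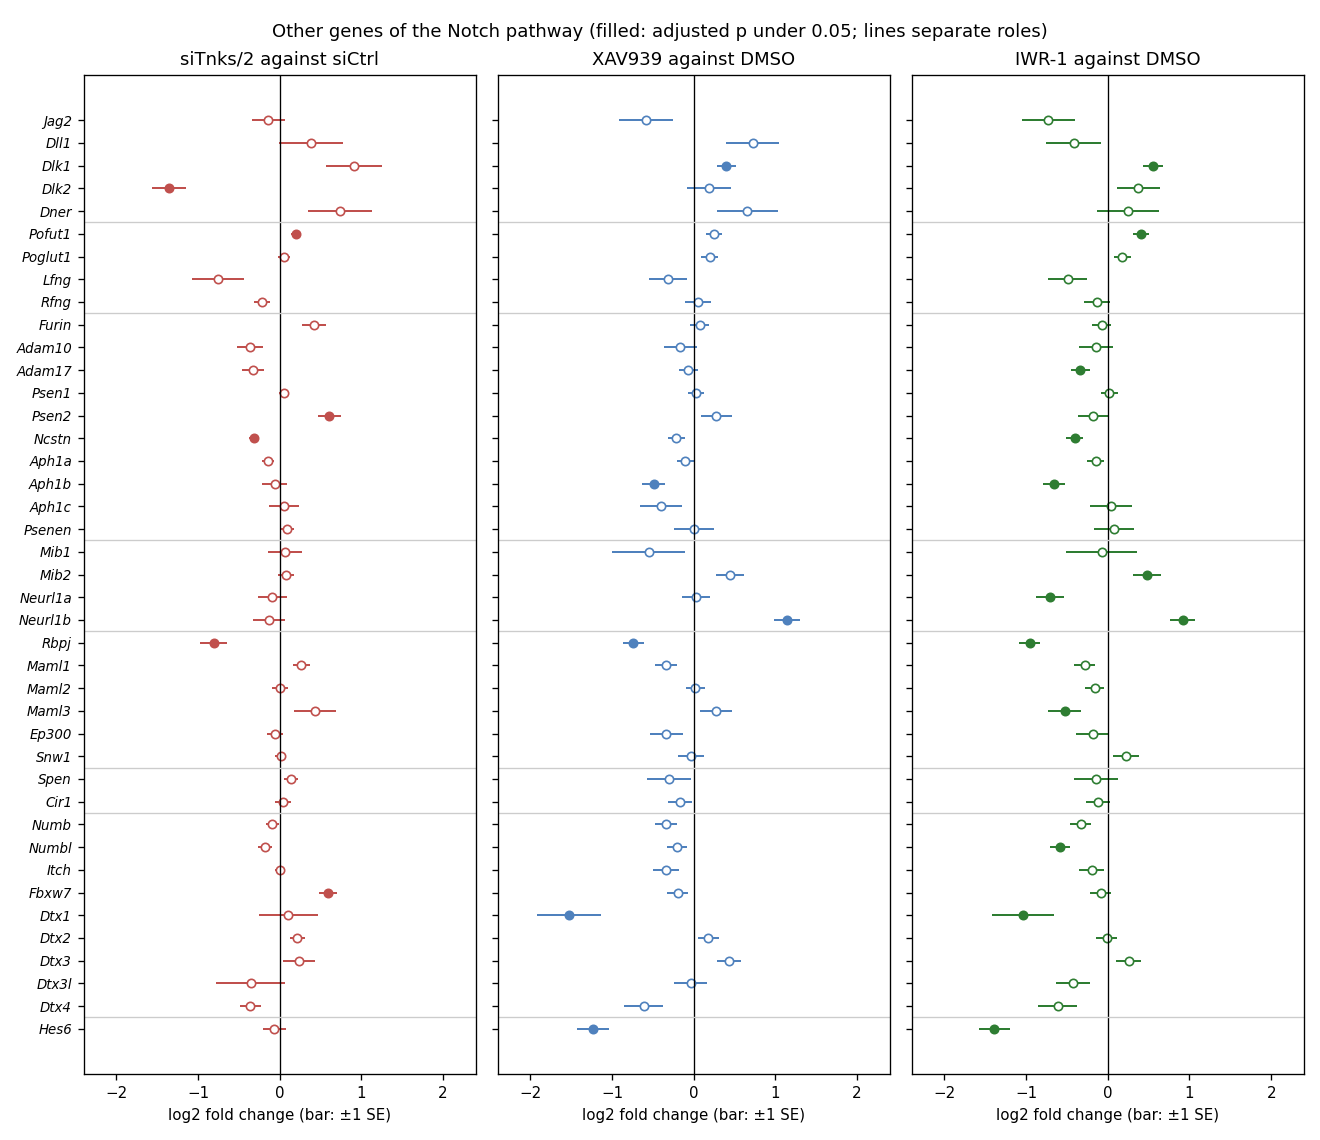
Log2 fold changes (bars ±1 SE) of 41 of the 42 tested other genes of the pathway in the 3 comparisons, ordered by role, with filled points for an adjusted p under 0.05. *Rbpj* is filled and left of 0 in each panel, and *Hes6* and *Neurl1b* are filled in both drug panels only.

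To see which genes varied most like each Notch gene, log2(CPM + 1) values were correlated over the 15 libraries after the mean of each table was removed, among 13342 genes tested in both tables. Groups and tables shape these values, and the correlations are a description. *Notch3* was closest to *Rnf145* (Pearson's r 0.99) and *Lrig1* (0.98), *Hey1* to *Gpr137b-ps* (0.96) and *Ihh* (0.94), and *Hey2* to *Krt19* (0.96) and *Fstl3* (0.95). *Notch2* was closest to *Sin3a* (0.96) and *Tcaf1* (0.95), *Notch1* to *Dnm1* (0.92) and *Lrrc8b* (0.90), *Jag1* to *Rfwd3* (0.91) and *Itih5* (0.91), and *Hes1* to *Cdc25a* (0.89) and *Slc25a37* (0.87). Among the Notch genes themselves, *Notch3* varied with *Notch2* (r 0.77) and *Hey2* (0.75), *Notch2* with *Jag1* (0.70), *Notch3* opposite to *Hey1* (−0.71), and *Hes1* varied opposite to *Hey1* (−0.69).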

How the data were processed

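Poly(A) RNA of 15 libraries was sequenced after TruSeq Stranded mRNA preparation. Per the labels and the study's methods, reads were trimmed by the authors (Trimmomatic 0.32), mapped to mm10 (TopHat2 2.0.13) and assigned to genes (HTSeq 0.6.1p1), with versions from the submitters' processing notes. The deposited values are raw counts for 24134 Entrez genes, of which 24051 matched a symbol. Which annotation was used, and whether strand was used, is not given in the sources used here. Reads carry no molecular identifiers.

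Tests were run with edgeR 4.0.16 in R 4.3.3 (filterByExpr, TMM, quasi-likelihood F test, prior count 2), each table in 1 model over its groups, and the 15 libraries in 1 model for differences between responses. Adjustment was by Benjamini-Hochberg across every gene tested, and a call is an adjusted p-value under 0.05. CPM values use TMM-scaled library sizes. The 95% intervals of log2 fold changes come from the same fit, and those of summed counts are exact conditional intervals. Gene positions and exon lengths are from GENCODE M21. The steps were run on simulated counts in which 200 genes were changed. These counts held no deviation shared by replicate number, so the run does not cover that feature of the data.

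The Notch genes and lists were chosen with earlier results of these data known. Genes named are the 8 Notch genes, *Tnks* and *Tnks2*, pathway genes called in all 3 comparisons, the 3 with the lowest adjusted p-values among those called in each direction of a comparison, and for each Notch gene the 2 with the highest correlation; *Maml3*, *Neurl1a*, *Mib2*, genes named as not tested or not passing, and single marker genes were named after their values were seen. For 1 pathway gene, counted among those tested, the result is not reported here. Replicate numbers come from the labels. After removal of group means, libraries of the same number correlated at 0.424 to 0.519 in the siRNA table (3 pairs) and 0.143 to 0.553 in the drug table (9 pairs), all above the limit of 0.1. Pairs of different numbers reached 0.0972 and 0.318. The numbers were therefore taken to pair the libraries, and the fit with the block is given where it changes a call. The labels do not say what a number marks. In the drug table some pairs of different numbers correlated more highly than some pairs of the same number.

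Alternatives were RLE and upper-quartile scaling, no filter, at least 10 counts in every library, DESeq2 1.42.0, the replicate block, only the 2 groups compared, the DEG limits of the study (fold above 3, adjusted p under 1e-05), and each library left out.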

Additional observations from a re-analysis of the deposited data

Results flagged for a closer look

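A test of the difference between responses singled out 2 genes. The response of *Hey1* to XAV939 differed from that to siTnks/2 by −1.48 on the log2 scale (adjusted p = 0.0138, edgeR over 15 libraries). *Hey1* was higher in 3 of 3 siTnks/2 pairs and lower in 3 of 3 XAV939 pairs, within-pair log2 ratios being 1.12, 0.80 and 1.79 against −0.30, −0.09 and −0.32. The fall with XAV939 did not itself pass the test.

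The response of *Notch3* to IWR-1 differed from that to siTnks/2 by −2.32 (adjusted p = 5.38e-05). *Notch3* was lower in every pair of both treatments, by log2 ratios of −0.56, −0.68 and −0.60 with siTnks/2 and −3.58, −2.50 and −2.73 with IWR-1. How long the siRNAs acted is not given, so it is unknown whether the times were matched.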

How the results depend on the processing

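The calls of *Notch3* and *Hey2* with XAV939 and of *Notch3*, *Hey1* and *Hey2* with IWR-1 held under RLE and upper-quartile scaling, no filter, DESeq2, the replicate block, the fit of only the groups compared and the loss of any 1 library. *Hey2* was tested in the drug table only because it was high with DMSO, so its holding in these refits is no support for a fall. With a minimum of 10 counts in all libraries *Hey2* was not tested, which left 1 Notch gene called with XAV939. Limits of 3-fold and 1e-05 left 0 Notch genes and 0 other pathway genes in edgeR in every contrast (5, 3, 4, 2, 2 and 2 Notch genes at an unadjusted p under 0.05). In DESeq2 these limits kept *Notch3* alone, for IWR-1 against DMSO, against XAV939 and in its difference from siTnks/2.

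The replicate block was used because the numbers were taken to pair the libraries, which the labels do not state. It moved the number of Notch genes called to 5 with siTnks/2. For the differences of XAV939 and IWR-1 from siTnks/2 the number became 3 and 2. The number of other pathway genes called became 14 with siTnks/2 and 14 with XAV939. The block changed no other call of a Notch gene than those given above. Without 1 library, 0 to 3 Notch genes and 1 to 8 other pathway genes were called with siTnks/2, 3 to 7 other pathway genes with XAV939, and 1 to 2 Notch genes for the difference of IWR-1 from siTnks/2. The cause of these moves was not tested.

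In the same fits, values that were not called turned sign. With XAV939 the log2 fold change ran from −0.19 to 0.35 for *Notch1*, −0.29 to 0.12 for *Jag1* and −0.19 to 0.35 for *Hes1*. Between IWR-1 and XAV939 it ran from −0.089 to 0.45 for *Notch1* and −0.39 to 0.13 for *Hey2*. Upper-quartile scaling moved the calls among all genes for the difference of XAV939 from siTnks/2 from 770 higher and 1152 lower to 1011 and 907, without a change for the Notch genes. Depth limits *Hey2* and *Heyl* most.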
